A study of Drosophila melanogaster with 39 samples.

Results

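Drip and Prip are the genes of 2 Drosophila melanogaster aquaporins, 2 of the 11454 genes named on the arrays. Drip was chosen by its high ratio of wing over leg discs and Prip by its low ratios in transdetermining cells, so those ratios describe the choice and carry no test. Each gene had 1 probe among the 16361 gene probes (CG9023 for Drip, CG7777 for Prip). In RefSeq's Release 6 annotation they are near neighbours on 1 chromosome arm, with the start of 1 protein-coding gene between them.

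Aquaporins are membrane channels of the major intrinsic protein family that let water, and in some members glycerol or other small solutes, cross cell membranes. Drip and Prip belong to the water-transporting branch of the insect family and are best known from the Malpighian tubules and other fluid-moving epithelia. Big brain (bib) is a divergent member known for its neurogenic phenotype, and the entomoglyceroporins Eglp1 to Eglp4 form the remaining branch. Imaginal discs are sacs of larval epithelium that form the adult wings and legs. When Wingless (Wg), a secreted signal, is expressed throughout a leg disc, some dorsal cells can turn to a wing fate, a switch called transdetermination (TD).

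Two-colour arrays measured 2 amplified RNA samples against each other on each of 39 slides, and every value here is the log2 ratio of the sample named first to the other. Wild-type samples came from male larvae late in their last instar of the Oregon R strain. On 9 arrays a wing disc was paired with a leg disc from its own larva, 3 times per leg segment, and on 4 a wild-type first leg disc with a common reference. The reference was amplified RNA pooled from leg discs of all segments from male and female wild-type larvae. Wg-expressing first leg discs, set against the reference on 6 arrays, came from larvae that carried y, w and hs-flp, vgBE-GAL4 over UASGFP, and the elements Actinc5, FRT y+, FRT and wg+. These larvae were heat-shocked at 60 and 72 h after egg laying and dissected 3 days later, with Wg in most but not all disc cells. TD cells were cut from such discs by the GFP that the vg boundary enhancer drives. Other dorsal cells of these discs, D(wg), were their partner on 3 arrays and ventral cells, V(wg), on 5, and 3 more arrays compared D(wg) with V(wg). Each sample of these 3 comparisons was pooled from 4 to 8 discs. Dorsal and ventral cells of wild-type discs, D(wt) and V(wt), were compared on 3 arrays, and TD cells with D(wt) on 2. On 4 arrays the reference was paired with second leg disc fragments that had regenerated for 3 to 5 days in the abdomens of adult females. No heat shock is labelled for wild-type samples, so Wg, heat shock and stock cannot be told apart in any comparison with them.

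An array held values for 18.1 to 89.5% of the gene probes. Drip had a value on 26 arrays, Prip on 35 and both on 25, and on 13 of those 25 the signs were opposite. These 25 include arrays that chose the genes. The wing selector vg and the wing marker ap lay at 5.63 and 3.49 in wing over leg discs. In TD over D(wg) and TD over V(wg) cells vg lay at 3.76 and 3.59. A vg enhancer reporter chose the TD cells, so high vg there is no independent check of the labels. In the same TD comparisons ap lay at -0.36 and -0.05 and was not called. The 2 probes of wg differed in Wg-expressing discs over the reference, one lying between 0.80 and 1.79 and the other between -1.27 and -0.24. The 2 arrays labelled TD against D(wt) went against their labelled direction. The spots for GFP, which only the TD cells should carry, had medians of -1.96 and -5.04 there, against 0.69 to 4.69 on the other TD arrays. In addition, vg lay at -1.73 and -1.77, against 2.51 to 5.17 on the other TD arrays with a value. Ilp8 lay at -7.08 and -6.28, against 1.96 to 7.42 on the other TD arrays. The gene w lay at -6.90 and -6.58, against 4.43 to 6.75 in Wg-expressing discs over the reference. Their direction is therefore treated as unsettled, no call is taken from them, and any value that uses them is given both ways.

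**Figure D1:**
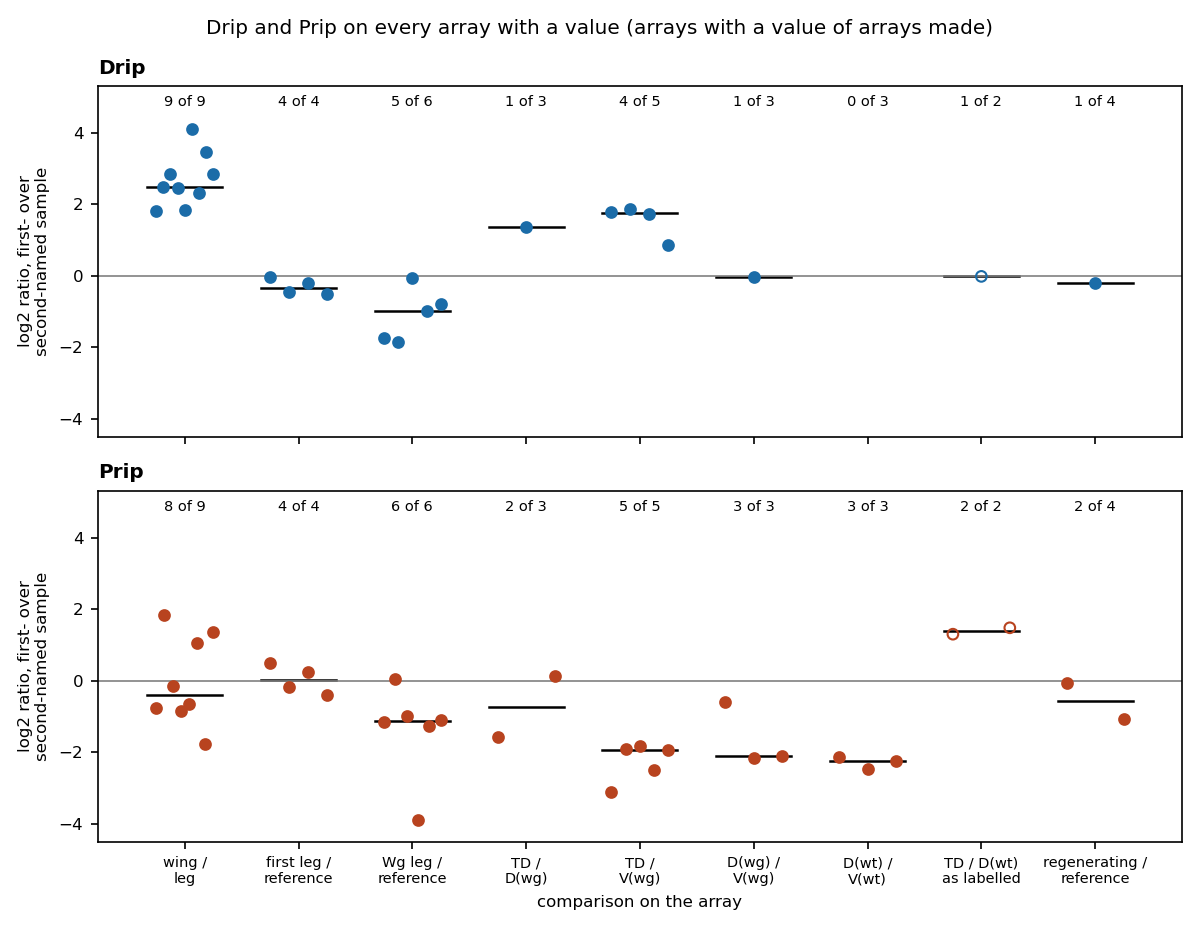
Log2 ratio of Drip (top) and Prip (bottom) on every array with a value, by comparison; a point is 1 array, the black line the median, and the counts above give arrays with a value of arrays made. Open points mark the arrays labelled TD against D(wt), whose direction is unsettled. Drip lies above 0 on all 9 wing arrays and all 4 measured TD over V(wg) arrays. Prip lies below 0 on all 11 arrays that set TD or dorsal cells against ventral cells. The wing arrays chose Drip and the TD arrays chose Prip.

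Drip transcript was higher in the wing disc than in the leg disc of the same larva on 9 of 9 arrays, from 1.82 through a median of 2.49 to 4.09. The fitted ratio was 2.69 ± 0.20 (SE), a 6.46-fold difference, which is the value that chose the gene. Drip stood above 99.8% of the probes tested in this comparison. By leg segment the mean was 2.21 ± 0.35 (SD, n = 3) over leg discs of segment 1, 2.91 ± 0.50 over segment 2 and 2.92 ± 1.13 over segment 3, and the ranges of the segments overlapped. The excess was present in both series of slide numbers, at 2.51 ± 0.64 on the 6 arrays of series 5 and 3.01 ± 0.93 on the 3 of series 6. It was also present whichever disc was labelled as the first probe, at 2.61 and 2.77. Markers of other tissues were listed beside it. Of those tested, 1 of 4 myoblast and muscle genes was called higher (Him, 1.06) and 0 of 4 tracheal genes in either direction. Over all probes 4.50% were called. No blood cell gene was tested, and the blood cell gene srp had a fitted ratio of 0.03 on 6 arrays. The mean over the 4 or 5 measured of 7 myoblast and muscle genes ranged from -0.06 to 1.16, and that over 3 to 6 of 7 tracheal genes from -0.10 to 0.56. Blood cell means, over 1 or 2 of 5 genes on 6 arrays, ranged from -0.04 through a median of 0.91 to 2.00. Their part in the Drip ratio was not tested. In whole discs and fragments, more cells of a type and more RNA per cell cannot be told apart.

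Prip, in contrast, had no common direction between wing and leg. It lay above 0 on 3 of the 8 arrays with a value and ranged from -1.77 to 1.84, with a median of -0.40. Its SD of 1.27 was larger than the 0.73 of Drip. The fitted ratio was 0.05 ± 0.32 (95% confidence interval -0.61 to 0.70), which did not pass the test (limma-moderated fit across all probes, adjusted p = 0.989). In this comparison 4.50% of the probes were called in either direction. The segment means were 0.71 ± 1.34 (SD, n = 3), -0.92 ± 0.82 (n = 3) and 0.35 ± 1.42 (n = 2), and their ranges overlapped. The sign of the fitted ratio rested on single arrays: it was -0.13 without replicate 2 and -0.05 without replicate 3 of segment 1, and -0.06 without replicate 1 of segment 2. Of the 8 arrays with both genes, Drip exceeded Prip by 0.65 to 5.22 on all, and their signs were opposite on 5. This comparison chose Drip for its high ratio, so the gap is a description only.

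Wild-type first leg discs did not differ detectably from the pooled leg reference in either gene. Drip lay at -0.03, -0.46, -0.21 and -0.50 on the 4 arrays. The fit gave -0.35 ± 0.30, with an unadjusted p of 0.257 and an adjusted p of 0.426 in the limma-moderated fit. Prip lay at 0.48, -0.18, 0.24 and -0.40, on both sides of 0. Its fit gave 0.11 ± 0.45 (unadjusted p = 0.808, adjusted p = 0.886, limma), and its sign turned to -0.06 without replicate 1. At the same threshold 17.8% of the probes were called here. The 95% confidence intervals, -0.98 to 0.28 for Drip and -0.81 to 1.03 for Prip, allow a shift of either sign. Fat body genes were low on these arrays, with means from -3.04 to -2.65 over 4 of 6 genes and all 4 tested called lower. Myoblast and muscle means ran from -1.39 to -0.78 over 6 or 7 of 7 genes, and 2 of 6 tested were called lower. Their part in the aquaporin ratios was not tested.

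In Wg-expressing first leg discs both transcripts were lower than in the reference. Drip had a value on 5 of the 6 arrays, at -1.75, -1.86, -0.07, -0.98 and -0.80, all below 0 although 1 array was close to it. The fitted ratio of -1.07 ± 0.26 (2.10-fold lower) was called, with an adjusted p of 0.00712 in the limma-moderated fit. Prip lay at -1.14, 0.06, -0.98, -3.91, -1.28 and -1.11, below 0 on 5 of 6 arrays. Its fitted ratio of -1.39 ± 0.36 (2.63-fold lower) was called as well (adjusted p = 0.00675, limma). Among all probes tested, 21.1% were called in either direction, so a call by itself was common in this comparison. In size, Drip lay above 1.4% of the probes and Prip above 0.6%.

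The call of Prip rested on 1 array. Replicate 4, at -3.91, was the single array of this comparison from slide series 6, and without it the fitted ratio was -0.90 with an adjusted p of 0.0505. The other series alone gave -0.91 and an adjusted p of 0.0677 (limma). Drip had no value on that array, and its call remained when each array was left out in turn (adjusted p from 0.00161 to 0.036, limma), but dividing each array by its spread gave -0.99 with an adjusted p of 0.139. Other marker genes were lower on the same arrays. The mean of 5 to 7 of 7 myoblast and muscle genes ran from -1.17 to -0.52, beside -1.39 to -0.78 on the wild-type first leg arrays. In the Wg-expressing discs all 4 dorsal leg genes of the list (Doc1, Doc2, Doc3 and dpp) were called lower, with a median of -1.35. Their part in the aquaporin ratios was not tested.

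Set against wild-type first leg discs through the shared reference, the Wg-expressing discs were lower by a margin that did not pass the test for either gene. For Drip the difference was -0.72 ± 0.40 (95% confidence interval -1.57 to 0.13, adjusted p = 0.307, limma), and the ranges of the arrays overlapped. For Prip it was -1.50 ± 0.57 (-2.68 to -0.32, unadjusted p = 0.0144, adjusted p = 0.112, limma). The arrays overlapped for Prip as well, through the Wg-expressing array at 0.06. In this contrast 6.64% of the probes were called. A difference between Wg-expressing and wild-type discs was therefore not shown for either aquaporin. The slide series of these groups do not overlap, so slide series and group cannot be told apart either. Of the fat body genes, 3 of 4 tested were called higher in the Wg-expressing discs in this contrast, with a list median of 3.13. Their means ranged from -0.26 to 0.36 over 2 to 6 of 6 genes on the 5 Wg-expressing arrays with a value, and their part in the aquaporin differences was not tested.

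**Figure D2:**
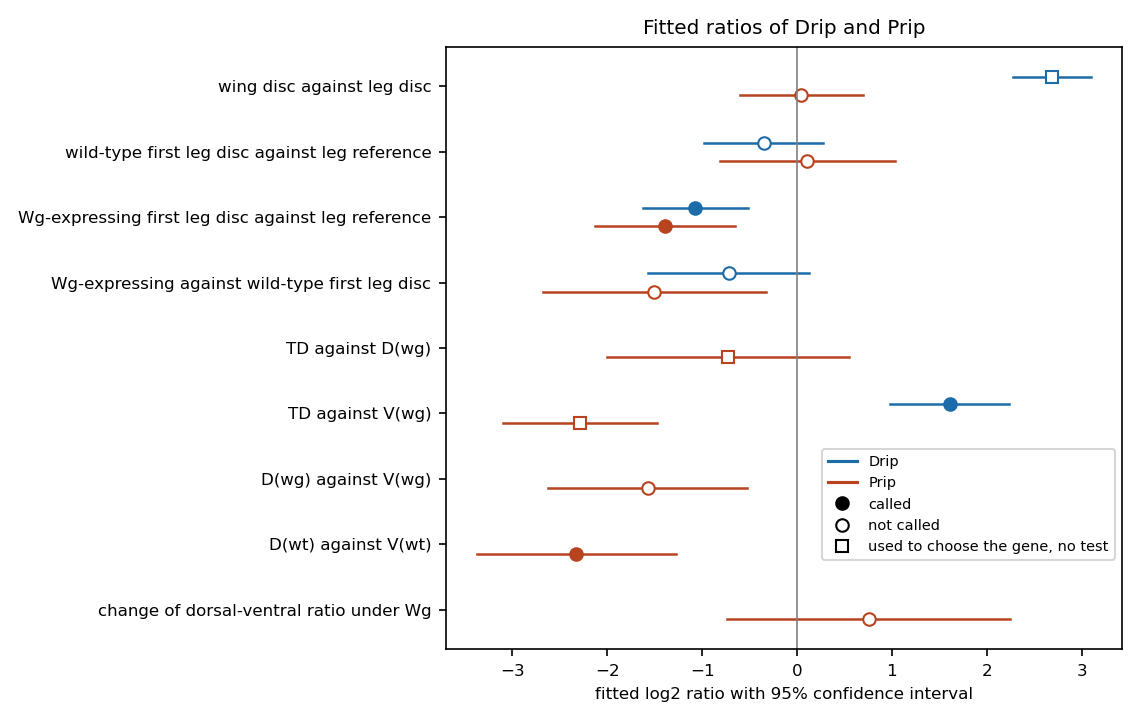
Fitted log2 ratio of Drip (blue) and Prip (red) in 9 comparisons, with 95% confidence intervals; filled circles were called, open circles were not, and squares are the ratios that chose the gene and have no test. Ratios resting on fewer than 2 arrays and the TD against D(wt) arrays are left out. The genes share a direction in Wg-expressing discs. They lie on opposite sides of 0 in TD over V(wg) cells, a comparison that chose Prip as low.

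Within Wg-expressing discs, Drip was higher in TD cells than in ventral cells. It lay at 1.77, 1.87, 1.73 and 0.87 on the 4 of 5 arrays with a value. The fitted ratio of 1.61 ± 0.30 (3.05-fold higher) was called, with an adjusted p of 0.00146 in the limma-moderated fit, where 6.90% of the probes tested were called higher and 13.4% in either direction. It exceeded 99.3% of those probes, and leaving out each array in turn gave 1.50 to 1.82 with the call kept. On single arrays Drip lay at 1.35 in TD over D(wg) and at -0.03 in D(wg) over V(wg). With 1 array each, these ratios were not tested. Wing over leg, where Drip was also high, chose the gene and adds no test to this result. TD cells also differ from V(wg) cells in being dorsal, so wing fate and dorsal position cannot be told apart here. The whole Wg-expressing disc was low in Drip against the reference. On the TD over V(wg) arrays the mean over 5 or 6 of 7 tracheal genes ranged from 0.01 to 0.92. Of 5 tested, 1 was called higher (Gasp, 1.02). The part of these genes was not tested.

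Prip was lower in TD cells than in ventral cells on 5 of 5 arrays, at -3.11, -1.90, -1.84, -2.50 and -1.93. The fitted ratio of -2.28 ± 0.40, 4.87-fold lower, is a ratio by which the gene was chosen. On the 4 arrays with both genes, their signs were opposite on all, and Drip exceeded Prip by 2.79 to 4.23. As Prip was chosen for its low ratio here, this gap adds nothing to the ratio of Drip. Against the other dorsal cells the Prip ratio was not settled. It lay at -1.59 and 0.13 on the 2 of 3 arrays with a value, and the fit of -0.73 ± 0.62 turned to 0.35 without replicate 1.

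Dorsal cells that had not turned to wing fate were low in Prip as well. In wild-type discs, D(wt) over V(wt) lay at -2.12, -2.46 and -2.26, a narrow spread (SD 0.17, n = 3). The fitted ratio of -2.33 ± 0.51 (5.03-fold lower) was called with an adjusted p of 0.0208 in the limma-moderated fit. Only 0.333% of the probes were called lower in this comparison and 0.694% in either direction, and Prip lay above 0.1% of them. With any 1 of the 3 arrays left out, the ratio stayed between -2.46 and -2.19 but the adjusted p rose to 0.13 without replicate 1, 0.295 without replicate 2 and 0.147 without replicate 3. Drip had no value on these 3 arrays, which held values for 38.1 to 53.1% of the probes, so its dorsal-ventral ratio in wild-type discs was not measured.

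In Wg-expressing discs the same comparison, D(wg) over V(wg), gave -0.59, -2.17 and -2.11 for Prip, all below 0. The fitted ratio of -1.57 ± 0.51 (95% confidence interval -2.62 to -0.52) had an unadjusted p of 0.0048 but did not pass after adjustment (adjusted p = 0.119, limma). Only 0.266% of the probes were called here in either direction. The ratio lay 0.76 ± 0.73 above that in wild-type discs, with an adjusted p of 0.708 (limma), where 0.115% of the probes were called. A change of the dorsal-ventral difference of Prip under Wg was not shown, and the interval of -0.74 to 2.25 allows one in either direction. On the wild-type dorsal-ventral arrays, tracheal means ranged from -0.27 to 0.08 over 4 or 5 of 7 genes and myoblast means from 0.01 to 0.50 over 3 or 4 of 7. Fat body means ranged from -0.07 to 0.74 over 1 to 3 of 6 genes, and blood cell means, from 1 of 5 genes on 2 arrays, were -0.15 and 0.78. Their part in the Prip ratio was not tested.

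Placed on 1 scale relative to V(wg), Prip stood at -2.28 ± 0.26 (SE) in TD cells, which restates the ratios that chose the gene, and at -1.58 ± 0.31 in D(wg). This order covers the Wg-expressing populations. TD and D(wg) are neighbours in it, and the arrays that compared them directly did not separate them. D(wt) and V(wt) join this scale only through the arrays of unsettled direction, on which Prip lay at 1.30 and 1.48 as labelled. As labelled, D(wt) stood at -3.78 ± 0.57 and V(wt) at -1.46 ± 0.66. With the sign turned, the way GFP, vg, Ilp8 and w ran, D(wt) stood at -1.01 and V(wt) at 1.31. Whether wild-type ventral cells hold less or more Prip than V(wg) cells thus depends on that direction. For Drip, TD cells stood at 1.54 ± 0.23 above V(wg), and D(wg) at 0.08 ± 0.35 from 2 arrays. The single array labelled TD against D(wt) with a Drip value gave -0.02. It put D(wt) at 1.59 ± 0.58 above V(wg) as labelled and at 1.55 with the sign turned, beside the 1.54 of TD cells.

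**Figure D3:**
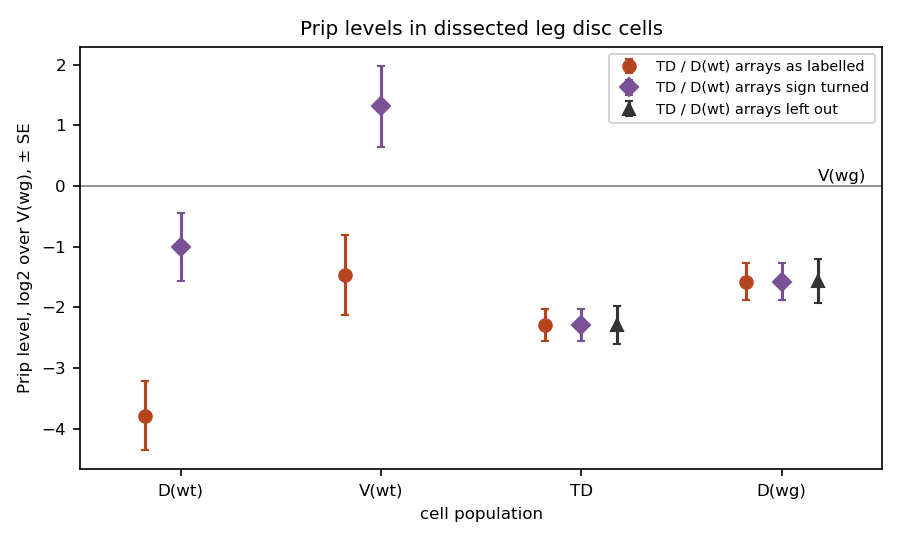
Prip level in each dissected cell population as log2 over V(wg) (line at 0), with SE, when the arrays labelled TD against D(wt) are used as labelled (circles), with the sign turned (diamonds) or left out (triangles). TD and D(wg) keep their levels in all 3 settings, while D(wt) and V(wt) move with the sign.

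Regenerating second leg fragments gave few values. Drip lay at -0.21 on 1 of 4 arrays and Prip at -0.06 and -1.06 on 2 of 4, and neither gene was tested against the reference or the other leg samples. These 4 arrays held values for 18.1 to 61.5% of the probes.

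The genes whose profiles over the groups of arrays were most like that of Drip were Ctl1, mia, Ir76a, sd and Doc3. Their Pearson correlations were 0.985, 0.98, 0.977, 0.967 and 0.966. Over the 480 genes compared the median was 0.457 and the upper decile 0.867, so high values were common. Only 6 groups had at least 2 Drip arrays, and 3 of them are wing over leg, the comparison that chose Drip. The named genes were not all high in wing discs: Ctl1 lay at 0.21 to 0.28 and Ir76a at -0.04 to 0.43 there, with values of -1.15 and -1.31 in Wg-expressing discs. Also among them are the Vg partner sd (scalloped), at 0.77 to 1.00 in wing over leg, and the dorsal T-box gene Doc3, at 1.31 to 1.66. Like Drip, Doc3 was called higher in TD over V(wg) cells (0.47) and lower in Wg-expressing discs (-0.58). These are correlations over groups that share the arrays, given as a description.

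The genes most like Prip depended on the arrays of unsettled direction. Over all 11 groups they were Gs2, Cat, Sdr, en and Ser, with correlations of 0.731 to 0.706. Without the 2 arrays in question, a choice made after the data were seen, they were wg (0.831), Wnt6 (0.73), hh (0.721), fz3 (0.687) and ap (0.684), and 0 of the 5 were shared. With the sign turned they were ap, Gs2, en, regucalcin and Wnt6. The Wnt ligand genes wg and Wnt6 mark ventral leg cells, and both were below 0 on the same 11 arrays as Prip. Of these, the 5 arrays of TD over V(wg) chose Prip. Both Wnt genes were also picked by likeness over groups that include these arrays, so the shared sign is a description. In D(wt) over V(wt) they lay at -4.56 and -3.63 beside -2.33 for Prip, and in TD over V(wg) at -3.21 and -2.84 beside -2.28. The other wg probe correlated less with Prip (0.564) and lay at -0.92 in TD over V(wg).

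**Figure D4:**
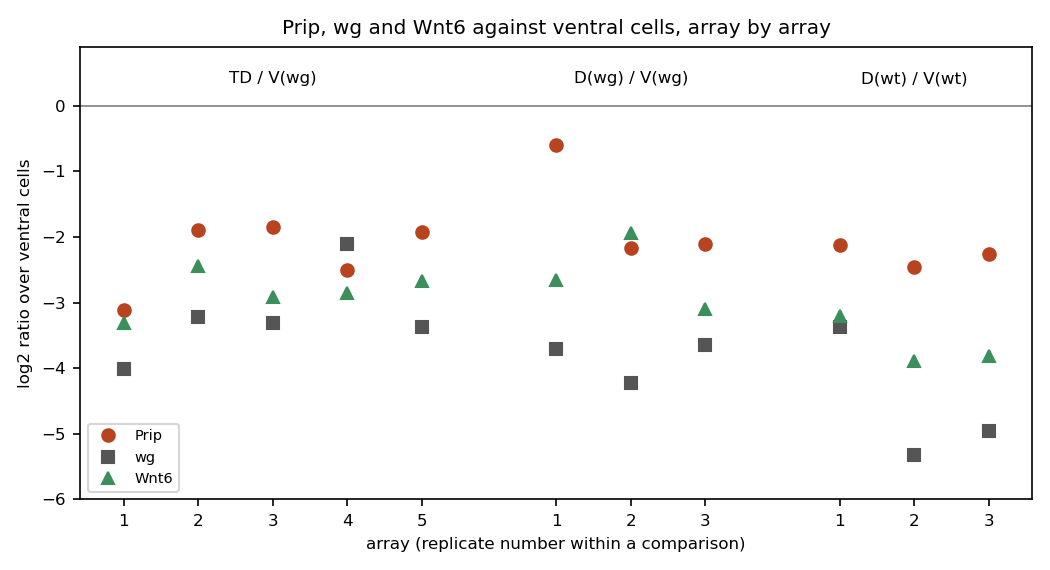
Log2 ratio of Prip (circles), wg (squares) and Wnt6 (triangles) on each of the 11 arrays that set TD or dorsal cells against ventral cells. The wg probe shown is the one that stood for the gene, and it correlated more with Prip than the other wg probe. All 3 genes lie below 0 on every array, and Prip lies between -3.11 and -0.59. The TD over V(wg) arrays are among those that chose Prip.

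Of the other aquaporin family members, bib was measured on all 39 arrays and the main Eglp2 probe on 17. In wing over leg, bib ranged from -0.98 to -0.04 on 9 arrays and had a fitted ratio of -0.56 ± 0.18 that did not pass (adjusted p = 0.079, limma). In Wg-expressing discs, where Drip and Prip were called lower, bib lay at 0.10 ± 0.22 (adjusted p = 0.794), while Eglp2 was called higher at 0.82 ± 0.19 (adjusted p = 0.0109, 5 of 6 arrays, limma). Eglp3 and Eglp4 lay at -0.33 and -0.04 there and were not called. In TD over D(wg) cells, bib fell by 1.51 ± 0.31 (adjusted p = 0.0024) and Eglp2 by 1.06 ± 0.25 (adjusted p = 0.0153, limma) on the log2 scale, where 7.45% of the probes were called lower. Each call rested on single arrays. For bib the ratio was -1.09 with an adjusted p of 0.0722 without replicate 2. For Eglp2 it was -0.86 (adjusted p = 0.117) without replicate 2 and -1.18 (0.0591) without replicate 3, and with equal array spread it was -0.95 (0.0529). In D(wt) over V(wt) bib lay at 0.05 ± 0.31, beside the -2.33 of Prip. Eglp1 had values on 6 of the 39 arrays and Eglp4 on 9, so little can be said of them.

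**Figure D5:**
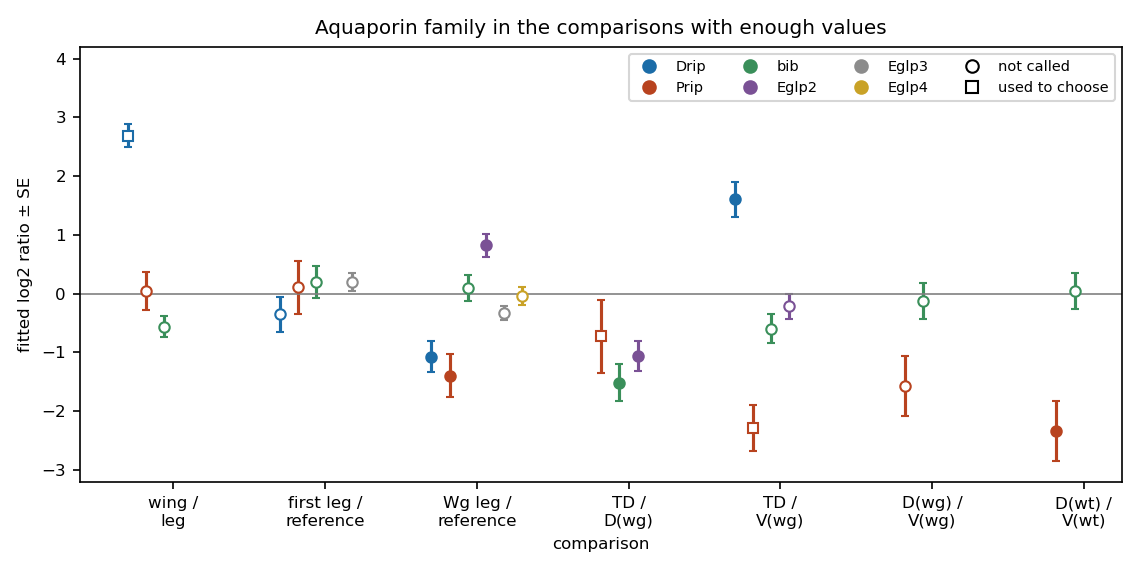
Fitted log2 ratio with SE of the aquaporin family members in 7 comparisons, shown where enough arrays had a value; filled circles were called, open circles were not, and squares mark the ratios used to choose Drip and Prip. Eglp2 is above 0 and Drip and Prip below 0 in Wg-expressing discs, and bib and Eglp2 are below 0 in TD over D(wg) cells.

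Water follows ions across an epithelium, so the ion transporters and the proton pump of the same cells were listed beside the channels. In wing over leg discs, where Drip was high, 1 of 13 tested ion transport genes was called higher, the carbonic anhydrase CAH1 at 1.12 ± 0.12, and 1 lower, the anion channel Best1 at -0.47 ± 0.11, which was -0.39 and not called on slide series 6 alone. Over all probes 4.50% were called. In TD over V(wg) cells 3 of 17 were called higher and 1 lower, beside 6.90% of all probes higher and 13.4% in either direction. The carbonic anhydrase CAH2 was the largest of these at 2.31 ± 0.33, beside 1.61 for Drip, and was called with each array left out. The cotransporters Ncc69 (1.06 ± 0.29) and NKCC (-0.39 ± 0.10) were called in opposite directions, but Ncc69 fell to 0.75 (adjusted p = 0.173) without replicate 1 and to 0.98 (0.0504) without replicate 4, and NKCC lay at -0.32 (0.0654) without replicate 4. Fitting these arrays alone ended both calls, and averaging the probes of a gene ended that of NKCC (-0.25, adjusted p = 0.125). The medians of the list, 0.08 in wing over leg and -0.12 in TD over V(wg), stood beside 0.00 and -0.01 over all probes tested.

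In TD over D(wg) cells CAH2 (1.65 ± 0.45) and Ncc69 (1.46 ± 0.37) were again called higher and the potassium-chloride cotransporter kcc lower (-1.05 ± 0.32), of 17 tested, where 17.8% of the probes were called in either direction. Ncc69 was not called without replicate 3 (1.37, adjusted p = 0.0681). CAH2 and kcc had values on 2 of the 3 arrays. In 3 of 5 other processing settings kcc was not called (-0.92 to -0.90, adjusted p from 0.0515 to 0.075), nor was CAH2 with equal array spread (adjusted p = 0.0551). In Wg-expressing discs, where both aquaporins were lower, kcc (-0.86 ± 0.18) and the potassium channel Irk1 (-0.85 ± 0.24) were called lower and Irk3 higher (0.77 ± 0.15), of 19 tested. Irk1 was not called with the probes of a gene averaged (-0.65, adjusted p = 0.052). Of the vacuolar proton pump, 7 of 17 tested genes were called lower and 0 higher in these discs. Of all probes, 21.1% were called there in either direction, and the share called lower alone is not given here. Those with the smallest p were VhaSFD at -1.05 ± 0.15 and VhaAC45 at -0.77 ± 0.12, and the median of the list was -0.26 against -0.03 for all probes. In TD over D(wg) cells the pump genes VhaSFD (0.67 ± 0.21) and Vha55 (0.76 ± 0.26) were called higher and VhaM9.7-b lower (-0.81 ± 0.26) of 16. Vha55 was not called with uncentred values (adjusted p = 0.0538) or without the dye term (0.0748). The adjusted p of VhaSFD and Vha55 rose to 0.0533 or more without any 1 of the 3 arrays, and that of VhaM9.7-b to 0.222 without replicate 2 and 0.141 without replicate 3. In TD over V(wg) cells Vha16-1 was called higher at 0.70 ± 0.19, 1 of 15 tested, where 6.90% of all probes were called higher.

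Septate junctions seal the spaces between the cells of these epithelia. In Wg-expressing discs 4 of 20 of their genes were called higher and 1 lower, a share near the 21.1% of all probes called there. Of these, cora lay at 0.69 ± 0.16, bou at 0.34 ± 0.12 and Nrg, the lower one, at -0.77 ± 0.13. With the probes of a gene averaged, cora was 0.35 and not called (adjusted p = 0.107). The call of bou was lost without replicate 1, 4, 5 or 6 (0.28 to 0.31, adjusted p from 0.0728 to 0.135), without the dye term (0.34, 0.0658), on slide series 7 alone (0.31, 0.0704) and with these arrays fitted alone (0.34, 0.218). In TD over D(wg) cells sinu was called higher (1.26 ± 0.28) and 3 of 18 lower, among them cora (-1.05 ± 0.23) and yrt (-0.67 ± 0.20), again a share near the 17.8% of all probes called. Without replicate 2, cora lay at -0.87 (adjusted p = 0.0614) and yrt at -0.49 (0.216), and without replicate 3, sinu lay at 0.74 (0.143) and yrt at -0.68 (0.0863). The call of yrt was also lost with these arrays fitted alone (adjusted p = 0.0651). The median of the list was 0.01 in Wg-expressing discs and -0.03 in TD over D(wg), beside -0.03 and 0.04 over all probes.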

How the data were processed

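Each array carried 2 RNA samples amplified in linear rounds and coupled to Cy3 or Cy5, per the labels' protocols. The deposited log2 values are, per the labels, ratios with the sample named second as numerator, and their base was taken from the values. The authors' filtering and normalisation of spots are not given in the sources used here, and signal over background is unknown. Every ratio was turned and each array centred on its median. Probe names were matched to symbols through RefSeq's Release 6 gene table, which named 15396 of 16361 gene probes, 456 matching several genes and 509 none. A least-squares model per probe over the 39 arrays held 11 group coefficients and a probe-order (dye) term. Its variance was moderated in R 4.3.3 by limma 3.58.1, whose prior SD was 0.2793 on 3.57 degrees of freedom. A probe was tested where at least 66.7% and at least 2 arrays of a group had a value. P-values were two-sided, adjusted by Benjamini-Hochberg over the probes tested and called at 0.05. The arrays of a comparison come from separate discs or pools, per the labels, and whether comparisons share extracts is not stated.

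The members, gene lists and tests were chosen with earlier results of these data known. The genes named are every aquaporin, the 5 genes most like each member among those with an SD of at least 0.5 over groups and at least 2 arrays a group, and up to 2 called genes per direction and list with the smallest p. For Drip the profile used the groups where it had at least 2 arrays, in place of all 11. The probe with the most values stood for a gene, with ties going to the first name in sorted order. Alternatives were the uncentred values, equal array spread, other uses of the dye term, a stricter filter, averaged probes, single slide series and leaving out each array. Replicates are numbered in the order of deposition. Figures used matplotlib 3.10.9 under Python 3.11.15.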

Additional observations from a re-analysis of the deposited data

Results flagged for a closer look

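Among 8 sets of 4 to 10 arrays examined for the members, an array stood far from the others in 2, where chance marks about 1 in 20 sets. Prip lay at -3.91 on replicate 4 of the Wg-expressing discs against the reference, while the nearest of the other 5 arrays lay at -1.28. This array alone came from slide series 6, Drip had no value on it, and the part of the slide series was not tested. Drip lay at 0.87 on replicate 5 of TD against V(wg), while the other 3 arrays with a value lay at 1.73 or above.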

How the results depend on the processing

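Of 285 recomputed values of the members' ratios and of the counts of calls, 235 kept their direction and call or, for counts and untested ratios, their size. With each array divided by its spread, Drip in Wg-expressing discs over the reference was -0.99 and no longer called, Drip in wing over leg was 3.96, and Prip in wild-type first leg discs was 0.00. Slide series 7 alone gave -0.91 for Prip in Wg-expressing discs, no longer called, and series 5 alone gave -0.16 for Prip in wing over leg. Prip in the arrays labelled TD against D(wt) was 1.39 without the dye term, in all arrays or in these alone, 1.38 with equal spread, and -1.24 with the sign turned, a setting chosen after seeing the data. With arrays left out in turn, Prip ranged from -2.46 to -2.19 in D(wt) over V(wt), losing its call each time, from -1.80 to 0.35 in TD over D(wg), from -1.66 to -0.90 in Wg-expressing discs, from -0.06 to 0.38 in first leg discs and from -0.13 to 0.31 in wing over leg.

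Counts of called probes moved by more than 1.5 times in several settings. The comparison's arrays alone gave 5 in D(wg) over V(wg) against 25, 223 in D(wt) over V(wt) against 50, 385 in TD over V(wg) against 1171, 270 in Wg-expressing against wild-type discs against 518, 15 in the dorsal-ventral change against 8 and 422 in first leg discs against 1413. Equal spread gave 9, 165, 260, 54 and 848 in the same order without TD over V(wg), and 592 in wing over leg against 288, where only probes with every value gave 179. D(wg) over V(wg) had 11 calls without the dye term and 13 with probes of a gene averaged, which gave 5 in the dorsal-ventral change. With arrays left out, counts ranged from 11 to 322 in D(wg) over V(wg), 19 to 35 in D(wt) over V(wt), 473 to 1153 in TD over D(wg) (1639), 577 to 1074 in TD over V(wg), 232 to 709 in Wg-expressing against wild-type discs, 1625 to 2554 in Wg-expressing discs (2587), 4 to 11 in the dorsal-ventral change, 334 to 1647 in first leg discs and 172 to 233 in wing over leg. The cause was not tested.

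No paired analysis was possible because the labels carry no replicate numbers that link arrays of different comparisons. The wing over leg ratios are already within 1 larva. Alternatives for the regenerating fragments were not run, since neither gene had values on enough of their arrays. Few arrays, missing values and unknown signal over background limit the precision.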
